A study of Mus musculus with 11 samples.

Results

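Major histocompatibility complex (MHC) class II molecules were followed here through 5 transcripts, H2-Aa, H2-Ab1, H2-Eb1, H2-Eb2 and Cd74, in germinal center B cells of mice that had lost the acetyltransferase CBP or its relative p300. The genes were chosen by symbol, and all 5 were found among the 48593 genes of the deposited table. They were measured in 11 libraries: 3 from CBP-KO mice (Crebbpfl/fl;Ep300+/+;Cg1cre/+), 3 from p300-KO mice (Crebbp+/+;Ep300fl/fl;Cg1cre/+) and 5 from WT mice (Crebbp+/+;Ep300+/+;Cg1cre/+). All groups carried Cg1cre/+, a Cre recombinase placed at the immunoglobulin gamma 1 constant gene, which acts in B cells once they are activated and enter the germinal center. Mice had been given sheep red blood cells, and splenic B cells that stained for B220, PNA and CD95 were collected by sorting on day 12. The labels call the WT mice littermates from a cross of Crebbp+/- parents and name no cross for either knockout, so litter and genotype cannot be told apart. Age, sex and sequencing batch are not given, and p-values measure the spread between these libraries only.

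Class II molecules are heterodimers of an alpha and a beta chain that carry peptides from endocytosed antigen to the surface, where CD4 T cells read them. In the germinal center, B cells compete for help from follicular helper T cells by presenting antigen in this way. H2-Aa encodes the alpha chain and H2-Ab1 the beta chain of the mouse molecule I-A. H2-Eb1 encodes the beta chain of I-E, and H2-Eb2 is a second E beta gene whose role is less well known. Cd74 encodes the invariant chain, which fills the peptide groove of new class II dimers and escorts them to the endosome, where proteases remove it. CIITA, the class II transactivator, binds no DNA itself and is held at class II promoters by RFX, CREB and NF-Y factors on the X and Y boxes. CBP and p300 are acetyltransferases that CIITA can recruit.

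In GENCODE M21 on GRCm38, 4 of the 5 genes lay close together on chromosome 17. H2-Ab1 spanned chr17:34257689-34269419 on the plus strand, H2-Aa chr17:34282744-34287823 on the minus strand, H2-Eb1 chr17:34305867-34316674 and H2-Eb2 chr17:34325665-34341412, both on the plus strand. The 150 bases before the RefSeq start site (GRCm38.p6) of the 3 members found in the promoter table are shown because they hold the element through which the members are known to be controlled together. The windows are chr17:34287824-34287973 on the minus strand for H2-Aa, chr17:34305717-34305866 on the plus strand for H2-Eb1 and chr17:34325525-34325674 on the plus strand for H2-Eb2. Capitals mark the GCAAC, a core of the X box, and the ATTGG, the core of the Y box, that follow each other as a pair, and in H2-Aa also CGTCA, a core of the cyclic AMP response element. Copies outside the pair stay in lower case, such as a GCAAC at -9 from the start site in H2-Eb2 and the reverse complement of ATTGG at -35 in H2-Eb1.
H2-Aa: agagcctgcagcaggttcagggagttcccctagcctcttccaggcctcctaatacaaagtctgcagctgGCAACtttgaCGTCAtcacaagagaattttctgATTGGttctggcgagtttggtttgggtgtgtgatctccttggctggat
H2-Eb1: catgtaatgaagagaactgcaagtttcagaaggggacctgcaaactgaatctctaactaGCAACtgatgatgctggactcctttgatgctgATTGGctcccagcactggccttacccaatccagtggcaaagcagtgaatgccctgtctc
H2-Eb2: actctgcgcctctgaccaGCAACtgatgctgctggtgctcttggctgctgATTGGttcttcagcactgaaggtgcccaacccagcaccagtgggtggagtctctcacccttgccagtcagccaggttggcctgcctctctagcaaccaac
H2-Ab1 and Cd74 were not matched in that table.

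The X core of the pair began at position -81 from the start site in H2-Aa, -91 in H2-Eb1 and -132 in H2-Eb2, and the Y core followed it by 33, 32 and 32 bases. From the X core to the end of the Y core, H2-Eb1 and H2-Eb2 shared 30 of 37 bases. Searched on both strands of all 32851 RefSeq promoter windows of 300 bases, GCAAC was in 35.2%, ATTGG in 37.4% and CGTCA in 20.8%. The ordered pair at a spacing of 20 to 40 bases, a range chosen after the sequences had been read, was in 336 windows, or 1.02%. Among 22 other genes of the class II pathway, 16 had a window in the table and 2 held the pair, H2-Oa and H2-Ob. The matches describe letters only.

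Depth was 53550726 to 132861266 reads per library. The deposited values are read counts divided by a size factor, called normalized read counts below. Ep300 fell in p300-KO (log2 difference -0.55 ± 0.061 SE, limma adjusted p = 0.00015). Crebbp averaged 8247 in CBP-KO and 8866 in WT (-0.10 ± 0.073, limma adjusted p = 0.459). A count over the whole gene does not isolate the floxed part, so the CBP-KO group rests on its labels. The library p300-KO_18 held both Xist (98751) and transcripts of 4 Y-linked genes (summed 9852), while each other library held one or the other. WT_46 had the highest summed macrophage and dendritic markers. The member differences, chain ratios, covariation, pathway counts and marker counts were therefore also computed without both libraries. All 12 germinal center B cell markers were measured, and their summed value was 874048 to 977003 in CBP-KO, 997276 to 1056280 in p300-KO and 934762 to 1029790 in WT. Of these 12, 3 fell in CBP-KO relative to WT, where 4.88% of all genes tested were lower. They were Cd22, an inhibitory receptor of B cells (-0.49 ± 0.083, limma adjusted p = 0.0035), Fas, which encodes the CD95 of the sort (-0.34 ± 0.074, 0.0137), and Cd79a, a B cell receptor subunit (-0.33 ± 0.079, 0.0210).

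Cd74 lies apart from the other members, on chromosome 18. Per kilobase of the longest coding transcript, Cd74 was the most abundant member in every group and H2-Eb2 the least. Cd74 averaged 224541 ± 25210 normalized read counts per kb in CBP-KO (SD, n = 3), 306399 ± 11368 in p300-KO (n = 3) and 319422 ± 19662 in WT (n = 5). The I-A chains came next. H2-Aa had 78779 per kb in CBP-KO, 115956 in p300-KO and 127635 in WT, and H2-Ab1 had 81268, 116329 and 122645 in the same groups. H2-Aa and H2-Ab1 were neighbours in the order whose means differed by less than 1 SD of either gene in every group. H2-Eb1 followed with 48265, 71426 and 74628 per kb, and H2-Eb2 with 2349, 2675 and 3453. The 5 genes together took 0.676% to 0.850% of all reads in CBP-KO, 1.05% to 1.16% in p300-KO and 1.07% to 1.22% in WT. In bulk RNA, fewer cells of a type and less RNA per cell cannot be told apart. The class II genes resemble each other in sequence, so reads that match 2 of them make the split between paralogs uncertain.

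All 5 members fell in CBP-KO relative to WT, by 29.9% (Cd74) to 38.6% (H2-Aa), and for each of them all 3 CBP-KO libraries lay below all 5 WT libraries. Over all 16515 genes tested, 4.88% were lower by the same test (limma, adjusted p below 0.05), and 8.47% had every CBP-KO library below every WT library. The median log2 difference was -0.60 over the members and 0.0065 over all genes tested.

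**Figure D1:**
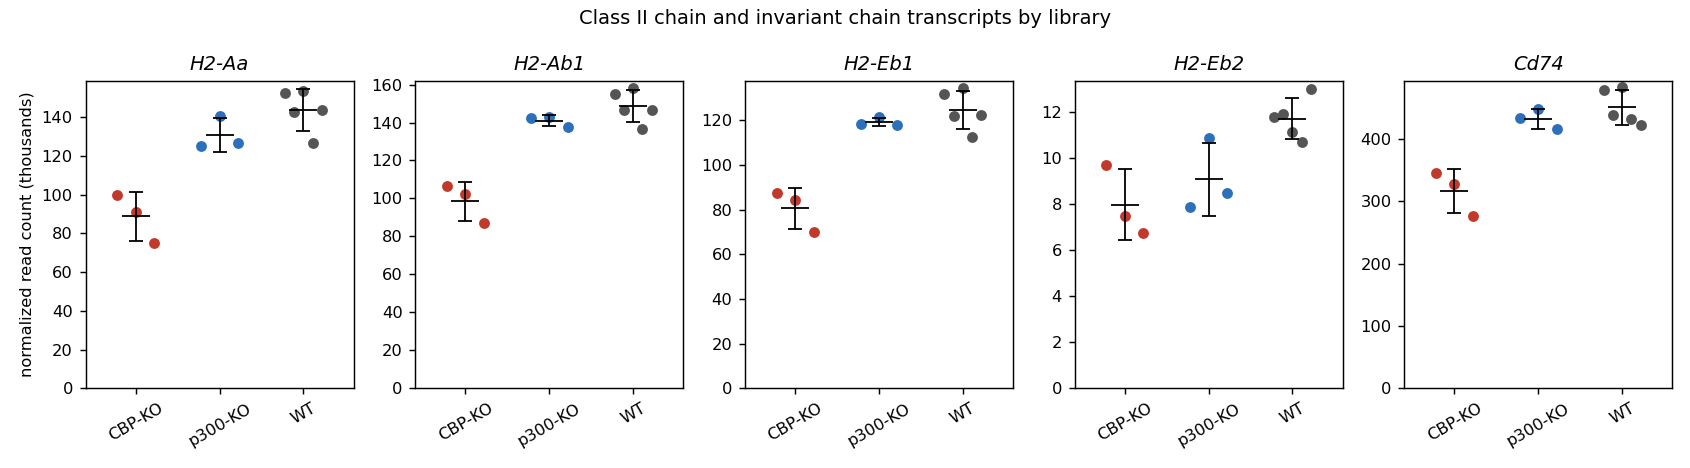
Normalized read count, in units of 1000, of each member in every library. Points are libraries, horizontal marks are group means and bars are SD. The 3 CBP-KO libraries lie below every WT library in all 5 panels, and the p300-KO libraries overlap the WT range in all 5.

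H2-Aa, the I-A alpha chain, had 100092, 91189.8 and 75307 normalized read counts in CBP-KO_1, CBP-KO_53 and CBP-KO_55. The p300-KO libraries had 124964, 140903 and 126527 (p300-KO_18, p300-KO_287 and p300-KO_289), and WT_4, WT_7, WT_41, WT_46 and WT_288 had 152672, 142809, 153770, 126744 and 143867. All 3 CBP-KO libraries were lowest, and 2 of the 3 p300-KO libraries also lay just under WT_46, the lowest WT library. The log2 difference of CBP-KO from WT was -0.70 ± 0.091 (SE, limma adjusted p = 0.00069), the largest of the 5.

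H2-Ab1, its beta chain partner, had 106290, 102242 and 86959 in the CBP-KO libraries in the same order, 142160, 142965 and 137848 in the p300-KO libraries, and 155002, 146698, 158283, 136736 and 146509 in the WT libraries. The p300-KO libraries were tightly grouped inside the WT range, and the CBP-KO libraries lay well under both. H2-Ab1 differed from WT by -0.60 ± 0.070 in CBP-KO (limma adjusted p = 0.00043).

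H2-Eb1, the I-E beta chain, had 87329, 84287 and 70049 in CBP-KO, 118506, 121347 and 117778 in p300-KO, and 131692, 121770, 134306, 112633 and 122369 in WT. The order of libraries was that of H2-Ab1 in CBP-KO, with CBP-KO_55 lowest. H2-Eb1 fell in CBP-KO by 0.63 ± 0.077 on the log2 scale (limma adjusted p = 0.00050).

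H2-Eb2, the second E beta gene, was about an order of magnitude less abundant. Relative to its mean it was more scattered than the other members in both knockouts, while in WT its scatter was close to that of H2-Aa. Its values were 9695, 7462 and 6745 in CBP-KO, 7859, 10886 and 8478 in p300-KO, and 11806, 11903, 11137, 10699 and 13018 in WT. All 3 CBP-KO libraries and 2 of the 3 p300-KO libraries lay below every WT library, and p300-KO_287 lay inside the WT range. The difference of CBP-KO from WT was -0.57 ± 0.121 (limma adjusted p = 0.0122). It missed the threshold without CBP-KO_53 (-0.53, limma adjusted p = 0.0637) and without CBP-KO_55 (-0.46, limma adjusted p = 0.0730).

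In both knockouts the library with the highest H2-Eb2 (CBP-KO_1 and p300-KO_287) was the one with Y-linked transcripts and almost no Xist. These libraries were also the highest of their groups for H2-Aa, H2-Ab1, H2-Eb1 and Cd74, so the pattern was not particular to H2-Eb2. In WT, the Y-linked libraries WT_288 and WT_41 had the highest and the second lowest H2-Eb2. With sex as a term and p300-KO_18 left out, H2-Eb2 was 0.24 higher on the log2 scale in libraries with Y-linked transcripts (limma adjusted p = 0.509 over all genes). In that fit CBP-KO was still below WT by -0.55 (limma adjusted p = 0.0043). The sex term was also above 0 for H2-Aa (0.15, limma adjusted p = 0.591) and H2-Ab1 (0.091, 0.686). For H2-Eb1 and Cd74 it was 0.099 (limma adjusted p = 0.689) and 0.083 (0.745).

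Cd74, the invariant chain, had 345368, 327577 and 276865 in CBP-KO, 433261, 447398 and 415411 in p300-KO, and 477762, 437700, 482415, 431845 and 422204 in WT. The lowest WT library and the highest CBP-KO library were separated by a gap wider than the SD of either group, and only p300-KO_289 lay under the WT range. The log2 difference of CBP-KO from WT was -0.51 ± 0.079 (limma adjusted p = 0.0020), the smallest of the 5. The 95% intervals of the 5 differences all overlapped, from -0.90 to -0.51 for H2-Aa and from -0.68 to -0.34 for Cd74. Without WT_46 and p300-KO_18 the 5 differences were -0.75, -0.63, -0.67, -0.60 and -0.53 for H2-Aa, H2-Ab1, H2-Eb1, H2-Eb2 and Cd74.

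Against WT, no member passed the limma test in p300-KO (1 had an unadjusted p under 0.05, edgeR called 0 and DESeq2 1), where 11.9% of genes were called in either direction and 6.09% were lower. The log2 differences were -0.14 ± 0.091 for H2-Aa (95% interval -0.33 to 0.060), -0.07 ± 0.070 for H2-Ab1 (-0.23 to 0.077), -0.06 ± 0.077 for H2-Eb1 (-0.23 to 0.11) and -0.06 ± 0.079 for Cd74 (-0.23 to 0.11). These intervals bound a fall in the 4 abundant members and do not show that there was none. Under quantile normalization, H2-Ab1 and H2-Eb1 had differences just above 0 (0.011 and 0.019). H2-Eb2 had the largest difference of the members, -0.38 ± 0.121 with a limma adjusted p of 0.0609, and its interval of -0.64 to -0.12 overlapped those of the other 4. Its call depended on the method, with DESeq2 (-0.37, adjusted p = 0.0241) and a fit of the 2 groups alone (-0.38, limma adjusted p = 0.0397) passing the threshold, as did the fits without CBP-KO_1 (limma adjusted p = 0.0276) and without p300-KO_287 (-0.52, limma adjusted p = 0.0218). Without WT_46 and p300-KO_18 it was -0.31 (limma adjusted p = 0.191).

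The knockouts were then set against each other in the same fit, in which the WT libraries enter only through the shared estimate of the spread. H2-Aa, H2-Ab1, H2-Eb1 and Cd74 fell in CBP-KO relative to p300-KO, and the groups did not overlap for any of the 4. In this comparison 4.63% of all genes were lower, and 15.6% had every CBP-KO library below every p300-KO library. The log2 differences were -0.57 ± 0.102 for H2-Aa (limma adjusted p = 0.0047), -0.52 ± 0.078 for H2-Ab1 (0.0016), -0.57 ± 0.086 for H2-Eb1 (0.0016) and -0.45 ± 0.088 for Cd74 (0.0073). H2-Eb2 overlapped between the knockouts and differed by -0.19 ± 0.135 (95% interval -0.48 to 0.10, limma adjusted p = 0.420).

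**Figure D2:**
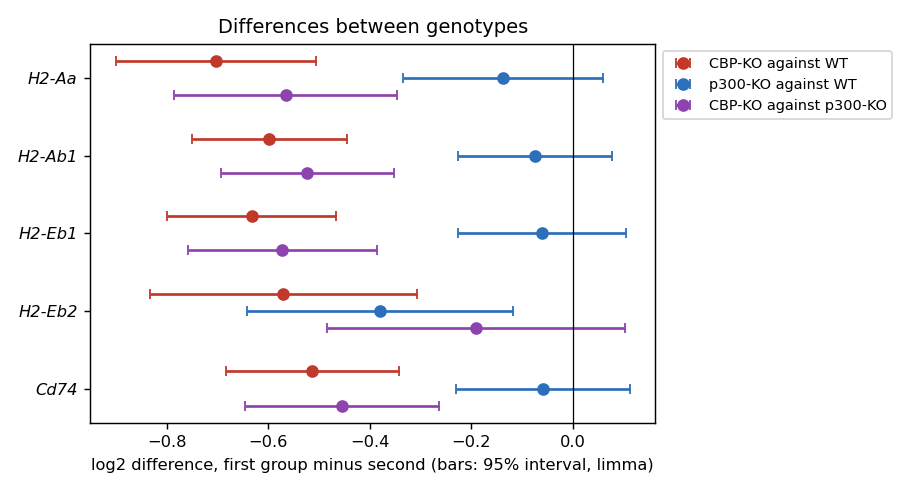
Log2 difference of each member in the 3 comparisons, with 95% intervals from limma. CBP-KO lies below WT for all 5 members and below p300-KO for 4, and the interval of H2-Eb2 spans 0 only in CBP-KO against p300-KO.

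Chain ratios were computed within each library, per kilobase, so that size factors cancel. Over 5 ratios and 3 comparisons, 15 exact two-sided permutation tests were run, and none passed after Benjamini-Hochberg adjustment. The smallest exact p that 3 libraries against 5 allow is 0.0179, and 3 against 3 cannot go below 0.1. After adjustment over 15 tests, a single ratio at its smallest p could not pass. The adjusted tests therefore do not show that the ratios were unchanged.

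The ratio of invariant chain to I-A chains, Cd74 to H2-Aa + H2-Ab1, was 1.39, 1.41 and 1.42 in CBP-KO, 1.35, 1.31 and 1.30 in p300-KO, and 1.29, 1.25, 1.28, 1.36 and 1.21 in WT. Every CBP-KO library was above every WT and every p300-KO library. The log2 ratio was 0.14 higher in CBP-KO than in WT (exact permutation p = 0.0357, adjusted p = 0.179), and all 3 CBP-KO libraries showed that direction.

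The alpha to beta ratio of I-A, H2-Aa to H2-Ab1, averaged 0.967 ± 0.041 in CBP-KO, 0.997 ± 0.058 in p300-KO and 1.04 ± 0.025 in WT (SD, n = 3, 3 and 5). CBP-KO_1 at 1.01 lay above WT_46 at 0.996, so the groups overlapped, and without WT_46 and p300-KO_18 they did not. The log2 ratio was -0.11 in CBP-KO relative to WT (exact permutation p = 0.0357, adjusted p = 0.179).

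Between the beta chains, H2-Eb1 to H2-Ab1 was 0.593 ± 0.0074 in CBP-KO, 0.614 ± 0.0078 in p300-KO and 0.608 ± 0.0083 in WT. H2-Eb1 to H2-Aa was 0.614 ± 0.021, 0.617 ± 0.031 and 0.585 ± 0.011 in the same groups. H2-Eb2 to H2-Eb1 was 0.0546, 0.0436 and 0.0474 in CBP-KO, 0.0326, 0.0441 and 0.0354 in p300-KO, and 0.0441, 0.0481, 0.0408, 0.0467 and 0.0523 in WT. The p300-KO libraries p300-KO_18 and p300-KO_289 were the lowest of the 11. The log2 ratio was -0.32 in p300-KO relative to WT (exact permutation p = 0.0714, adjusted p = 0.179) and 0.06 in CBP-KO relative to WT (exact permutation p = 0.554, adjusted p = 0.639).

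**Figure D3:**
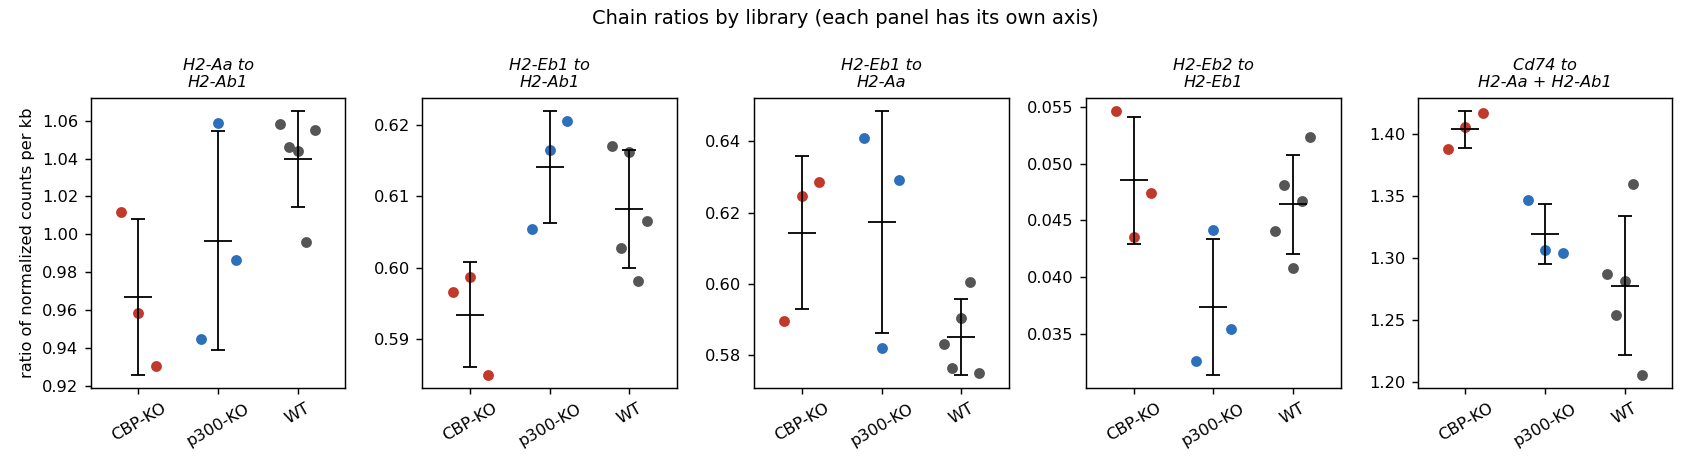
Ratio of normalized read counts per kb for 5 pairs of members in every library, with group mean and SD. Each panel has its own axis that does not start at 0. CBP-KO libraries have the highest Cd74 to H2-Aa + H2-Ab1 ratios (1.39 to 1.42), and 2 p300-KO libraries the lowest H2-Eb2 to H2-Eb1 ratios.

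Covariation between members was computed over the 8 p300-KO and WT libraries, because the CBP-KO libraries formed a separate cluster. These values include any difference between p300-KO and WT. All 10 pairs were tested with exact permutation tests adjusted over the pairs. H2-Ab1 and H2-Eb1 were the closest pair (Pearson r = 0.98, exact p = 5.0e-05, adjusted p = 0.00050; Spearman rho = 0.98, exact p = 0.00040, adjusted p = 0.0040). H2-Aa followed H2-Ab1 (r = 0.91, exact p = 0.0011, adjusted p = 0.0037; rho = 0.88, exact p = 0.0072, adjusted p = 0.0241) and H2-Eb1 (r = 0.90, exact p = 0.00092, adjusted p = 0.0037; rho = 0.90, exact p = 0.0046, adjusted p = 0.0228). These 3 relations held without the 2 libraries farthest from the median of the first gene (r = 0.90, 0.96 and 0.97, n = 6).

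By Pearson's r, Cd74 correlated with H2-Ab1 (r = 0.86, exact p = 0.0113, adjusted p = 0.0256; rho = 0.76, exact p = 0.0368, adjusted p = 0.0735), H2-Eb1 (r = 0.85, exact p = 0.0128, adjusted p = 0.0256; rho = 0.69, exact p = 0.0694, adjusted p = 0.0991) and H2-Aa (r = 0.77, exact p = 0.0275, adjusted p = 0.0411; rho = 0.64, exact p = 0.0962, adjusted p = 0.107). These 3 pairs passed by r and not by rho. Without WT_4 and WT_41 the relation of Cd74 to H2-Ab1 dropped to r = 0.29 and that to H2-Eb1 to r = 0.19, so both rested on those libraries. Without p300-KO_18 and p300-KO_289 the relation of Cd74 to H2-Aa was r = 0.72.

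H2-Eb2 correlated with H2-Aa by r and not by rho (r = 0.76, exact p = 0.0288, adjusted p = 0.0411; rho = 0.79, exact p = 0.0279, adjusted p = 0.0698), and this relation rested on p300-KO_18 and p300-KO_289, without which r was 0.38. Its relations with H2-Ab1 (r = 0.50, exact p = 0.199, adjusted p = 0.249; rho = 0.67, exact p = 0.0831, adjusted p = 0.104), H2-Eb1 (r = 0.41, exact p = 0.309, adjusted p = 0.343; rho = 0.69, exact p = 0.0694, adjusted p = 0.0991) and Cd74 (r = 0.33, exact p = 0.434, adjusted p = 0.434; rho = 0.24, exact p = 0.582, adjusted p = 0.582) did not pass. As a description, deviations from the group means over all 11 libraries correlated at 0.99 for H2-Ab1 with H2-Eb1, 0.93 for H2-Ab1 with Cd74 and 0.53 for H2-Ab1 with H2-Eb2. Within the 5 WT libraries alone, r was 0.998 for H2-Ab1 with H2-Eb1 and 0.83 for H2-Ab1 with Cd74. There it was 0.37 for H2-Aa with H2-Eb2 and -0.36 for H2-Eb2 with Cd74. Libraries share their size factor across genes, which these values include.

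**Figure D4:**
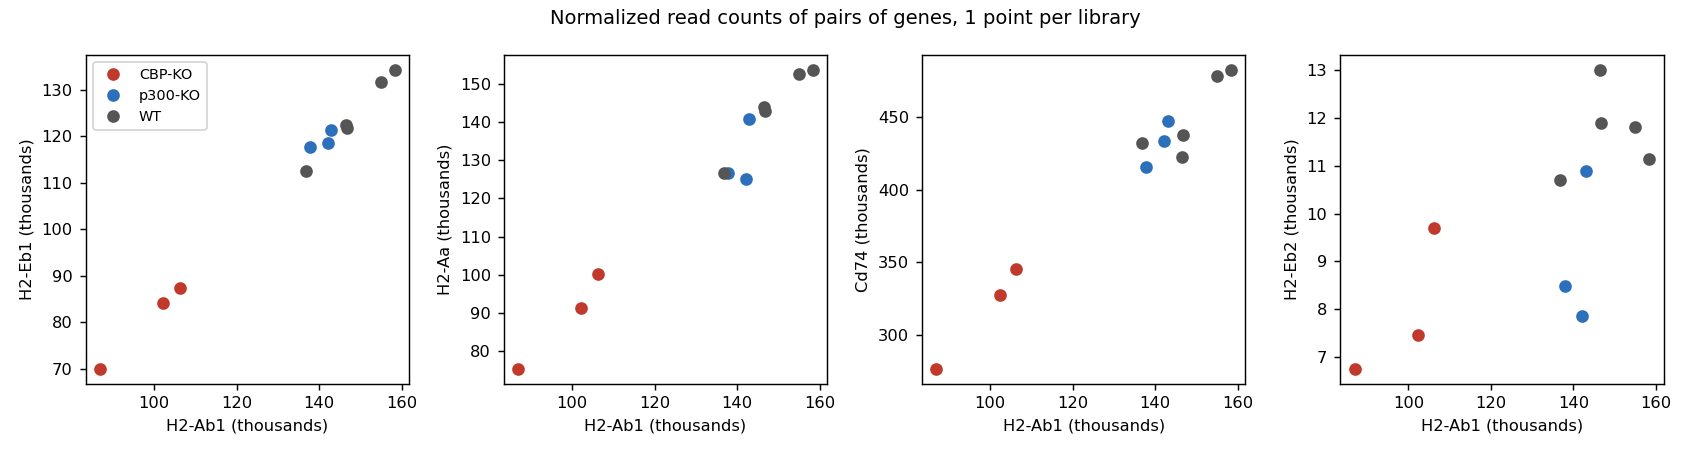
Normalized read counts, in units of 1000, of H2-Ab1 against H2-Eb1, H2-Aa, Cd74 and H2-Eb2, with 1 point per library. The CBP-KO points form their own cluster at the low end of the first 3 panels, and H2-Eb2 spreads widely at a given H2-Ab1.

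The genes that load and control class II were examined as a list of 22, all tested. In CBP-KO relative to WT, 7 fell, 2 rose (4.88% of all genes fell and 3.48% rose) and 13 did not pass, and the median was -0.14. Among the peptide editors, 4 of 5 fell. H2-DMa and H2-DMb2, subunits of the DM exchanger that frees the groove of invariant chain peptide, changed by -0.66 ± 0.087 (limma adjusted p = 0.00079) and -0.61 ± 0.084 (limma adjusted p = 0.00095), and H2-DMb1 by -0.54 ± 0.125 (0.0177). H2-Oa, of the DO molecule that restrains DM, averaged 4182 ± 1008.5 in CBP-KO and 7633 ± 541 in WT (SD, n = 3 and 5), a change of -0.89 ± 0.126 (limma adjusted p = 0.0012). Its partner H2-Ob had -0.27 ± 0.092 (limma adjusted p = 0.0935). Without CBP-KO_55 the count of fallen genes was 4.

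Of the transcription factors, Ciita had 36588, 36121 and 29986 in CBP-KO, 38430, 46352 and 40608 in p300-KO, and 44943, 43624, 45307, 41756 and 41770 in WT. Every CBP-KO library was lowest, and Ciita fell in CBP-KO relative to WT by 0.35 ± 0.076 on the log2 scale (limma adjusted p = 0.0135). It had -0.06 ± 0.076 in p300-KO relative to WT (limma adjusted p = 0.682) and -0.29 ± 0.085 in CBP-KO relative to p300-KO (limma adjusted p = 0.0505). Rfx5, a subunit of the X box factor, had -0.21 ± 0.075 in CBP-KO relative to WT (limma adjusted p = 0.112) and fell relative to p300-KO (-0.31 ± 0.084, limma adjusted p = 0.0372). Rfxap, another RFX subunit, rose in CBP-KO relative to WT by 0.32 ± 0.071 (limma adjusted p = 0.0167).

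Of the invariant chain proteases, Lgmn, an endosomal legumain, fell in CBP-KO (-0.47 ± 0.067, limma adjusted p = 0.0012), as did Ctss, the cathepsin that makes the last cuts in B cells (-0.24 ± 0.067, limma adjusted p = 0.0425). Ctsl, a cathepsin of thymic epithelium, rose at low level to 147 ± 12.5 normalized read counts in CBP-KO, against 57.2 ± 19.5 in WT (SD, n = 3 and 5; 1.40 ± 0.255, limma adjusted p = 0.0053). It was also higher in p300-KO than in WT, where it reached 177 ± 23.7 (1.67 ± 0.255, limma adjusted p = 0.0014). In p300-KO relative to WT, 3 of the 22 rose (Ctsl, Ctsb and March8; 5.84% of all genes rose), and 0 fell by limma, edgeR or DESeq2, with 1 lower at an unadjusted limma p under 0.05. In CBP-KO relative to p300-KO, 5 fell (H2-DMa, H2-DMb2, H2-Oa, Lgmn and Rfx5) and 0 rose, where 4.63% of all genes fell and 4.79% rose. At an unadjusted limma p under 0.05, 3 were higher, edgeR called 0 higher and DESeq2 called 1. With 1 library left out, 3 fell when that was CBP-KO_53, CBP-KO_55 or p300-KO_287, and 8 when it was WT_46. DESeq2 gave 8.

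H2-Ea-ps, the alpha chain gene of I-E, is annotated as a polymorphic pseudogene, being silenced by a promoter deletion in some mouse haplotypes. It had 8.85 to 20.5 normalized read counts in CBP-KO, 14.6 to 17.6 in p300-KO and 18.9 to 56.2 in WT, while H2-Eb1 had at least 70049 in every library. The mouse strain is not given in the labels. H2-Ea-ps and H2-Eb2 point at each other, ending at chr17:34341959 and chr17:34341412, and the libraries keep no strand.

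Within 500 kb on either side of the H2-Aa start, 56 genes were tested. In CBP-KO relative to WT, 16 of them fell by limma, where 4.88% of all genes were lower. These were 8 of 10 class II genes from the members and the pathway list (median -0.62) and 8 of 46 other genes (median -0.12). The 46 others include the pseudogenes H2-Pa and H2-Pb. In p300-KO relative to WT, 1 fell and 1 rose, where 6.09% and 5.84% of all genes did. In CBP-KO relative to p300-KO, 10 fell, 6 of 10 listed class II genes and 4 of 46 others, where 4.63% of all genes were lower. On a list of 18 tested neighbours that present no antigen, 1 fell in CBP-KO relative to WT, Btnl2, a butyrophilin-like gene next to H2-Ea-ps (-1.05 ± 0.183, limma adjusted p = 0.0043). Fallen genes of the window that the list does not hold included Btnl1 (-1.16, limma adjusted p = 0.00069), BC051142 (-1.14, limma adjusted p = 0.0449) and Gpsm3 (-0.23, limma adjusted p = 0.0218), named after their values were seen. Others, named likewise, were Tap1 (-0.51, limma adjusted p = 0.0417), Tapbp (-0.39, 0.0221) and H2-Pb (-3.05, 0.0151), the last at a mean of 14.4 normalized read counts. Btnl2 also fell in p300-KO relative to WT (-0.72 ± 0.183, limma adjusted p = 0.0223). Reads of the antisense gene Gm20513, which starts 20.2 kb from the H2-Aa start (-0.57, limma adjusted p = 0.0373 in CBP-KO relative to WT; named after its value was seen), cannot be told apart from those of H2-Eb1 where they overlap.

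**Figure D5:**
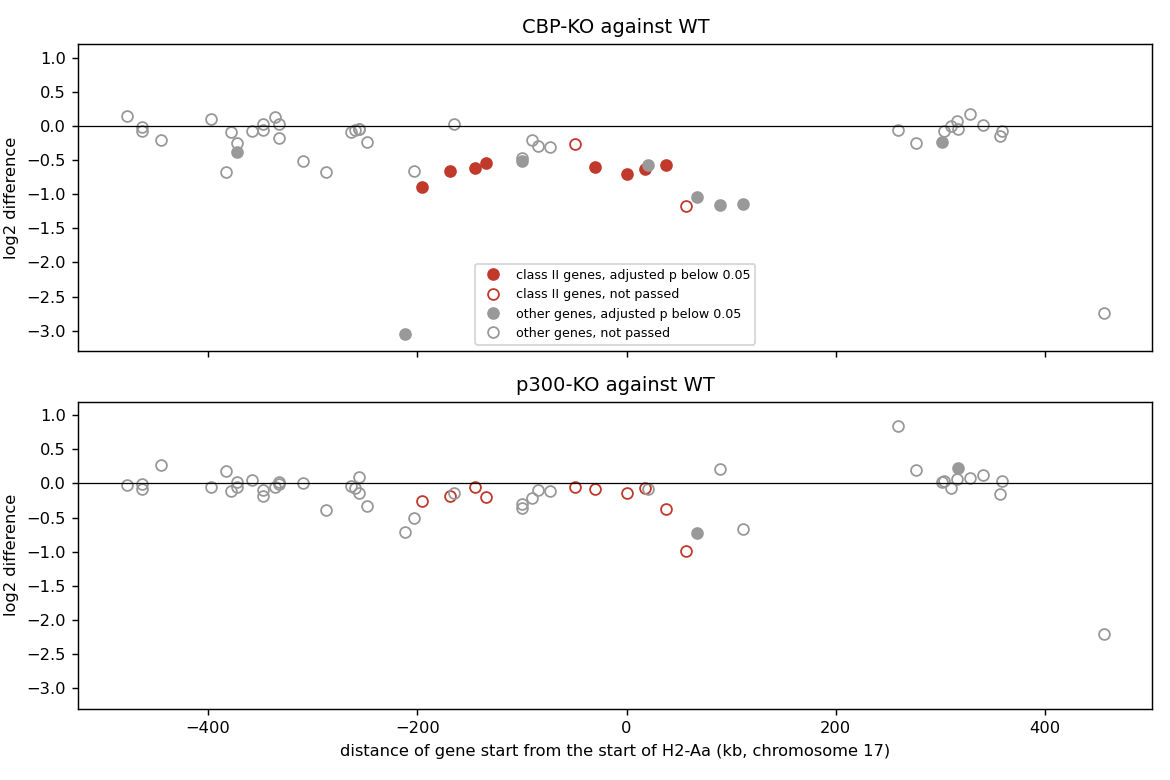
Log2 difference from WT of each tested gene within 500 kb of the H2-Aa start on chromosome 17, against its distance in kb, for CBP-KO (upper panel) and p300-KO (lower panel). Filled points passed at a limma adjusted p below 0.05. Class II genes from the members and the pathway list, in red, lie below 0 in the upper panel, with 8 of 10 filled, and none is filled in the lower panel. The pseudogenes H2-Pa and H2-Pb are drawn with the other genes.

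Macrophages and dendritic cells also carry class II transcripts, and their summed markers were lower in every knockout library than in every WT library. Mpeg1 had the highest mean of the macrophage markers in every group, and Flt3 of the dendritic markers. Both sums lean on these genes and do not show that either cell type was rarer in the knockouts. In p300-KO relative to WT, the median log2 difference was -0.69 over the macrophage and -0.60 over the dendritic genes tested. Some markers went the other way there, such as Adgre1, averaging 64.6 in p300-KO and 57.4 in WT, and Zbtb46, averaging 74.1 and 47.6. The summed value of 15 macrophage markers was 2134 to 2964 in CBP-KO, 2450 to 3322 in p300-KO and 3622 to 9643 in WT, and 12, 12 and 11 of the 15 averaged under 100. The markers differed widely in level. C1qb, a complement subunit, had 0, 3.93 and 2.18 in CBP-KO, 2.56 to 32.0 in p300-KO and 8.72 to 107.7 in WT. Mpeg1, which encodes a pore-forming protein of phagocytes, averaged 1372 in CBP-KO, 1466 in p300-KO and 3561 in WT, and Cd68, a lysosomal protein, averaged 596, 834 and 805 in the same groups. Csf1r, the receptor for macrophage growth factor, averaged 377, 359 and 416 (Cd68 and Csf1r were named after their values were seen). Of 11 macrophage genes tested, 4 fell in CBP-KO by limma (Adgre1, C1qb, C1qc and Mpeg1) and 1 in p300-KO (Mpeg1). Relative to WT, 4.88% of all genes were lower in CBP-KO and 6.09% in p300-KO. In CBP-KO relative to WT, edgeR gave 4 and DESeq2 9, and 9 were lower at an unadjusted limma p under 0.05. The median log2 difference of the 11 in that comparison was -1.58, against 0.0065 over all genes. By limma, leaving out CBP-KO_53 gave 1 fallen gene in CBP-KO, and leaving out CBP-KO_55 gave 2.

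The sum of 10 dendritic markers, most of it Flt3, was 3078 to 3579 in CBP-KO, 2755 to 2942 in p300-KO and 4391 to 6019 in WT. The sum of 10 T cell markers, most of it Lck, was 4897 to 6021 in CBP-KO, 4625 to 5940 in p300-KO and 9013 to 11216 in WT. Lck averaged 5100, 5271 and 9718 in these groups. In each group 8 of the 10 markers averaged under 100, and 6, 7 and 5 averaged under 10. This sum thus follows Lck and does not show that T cells were rarer in the knockouts. Cd28 averaged 23.9 in CBP-KO and 18.5 in WT. In CBP-KO relative to WT, 1 of 5 dendritic genes tested fell by limma (Flt3) and 2 of 5 T cell genes (Lck and Lat). In p300-KO relative to WT, 1 of each fell by limma (Flt3 and Lck). Over all genes tested, 4.88% and 6.09% were lower in these 2 comparisons. Of the dendritic genes, edgeR called 2 and DESeq2 3 lower in CBP-KO relative to WT. In CBP-KO relative to p300-KO, the 11 macrophage genes had a median log2 difference of -1.22, against -0.0033 over all genes. Of these 11, 1 fell by limma and edgeR and 5 by DESeq2, where 4.63% of all genes were lower by limma. By limma, 0 fell without CBP-KO_55, p300-KO_18 or p300-KO_287, 4 without p300-KO_289 and 2 without WT_41 or WT_46. Adgre1, the F4/80 antigen, had 19.3, 17.7 and 13.1 in CBP-KO, 65.5, 84.7 and 43.5 in p300-KO, and 26.2 to 89.3 in WT, and it fell in CBP-KO relative to p300-KO (-1.85 ± 0.408, limma adjusted p = 0.0140). Of the 5 dendritic genes, 1 fell relative to p300-KO, Zbtb46, a dendritic cell transcription factor (-1.40 ± 0.378, limma adjusted p = 0.0366), and of the 5 T cell genes 0 by limma, edgeR or DESeq2 (1 was lower at an unadjusted limma p under 0.05). Zbtb46 was not called when any 1 knockout library was left out. In WT_46, which had the highest macrophage and dendritic sums, H2-Aa, H2-Ab1, H2-Eb1 and H2-Eb2 were the lowest of the 5 WT libraries. The part of other cells in the class II differences was not tested.

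Class II genes were also set beside genes of the 2 germinal center zones, the light zone where B cells meet T cells and the dark zone where they divide. Of 8 light zone genes, 3 fell in CBP-KO relative to WT: Cd40, the receptor for T cell help (-0.64 ± 0.125, limma adjusted p = 0.0080), Slamf1 (-0.46 ± 0.095, 0.0108) and Nfkbia (-0.58 ± 0.148, 0.0295). The median over the 8 was -0.42, against 0.0065 over all genes, of which 4.88% were lower by limma. Cd83, a surface protein that limits class II turnover, had -0.15 ± 0.201 relative to WT (limma adjusted p = 0.734) and -0.69 ± 0.224 relative to p300-KO (0.0742). The summed light zone value was 39282 to 57710 in CBP-KO, 63179 to 80127 in p300-KO and 53017 to 66790 in WT. Of 7 dark zone genes, Ccnb2 alone rose (0.23 ± 0.062, limma adjusted p = 0.0407), where 3.48% of all genes rose. Cxcr4, the receptor that draws cells into the dark zone, had 0.09 ± 0.056 (limma adjusted p = 0.360). The summed dark zone value was 168532 to 179786 in CBP-KO, 151028 to 167260 in p300-KO and 158155 to 168084 in WT. In p300-KO relative to WT, 0 light zone genes passed by limma, edgeR or DESeq2 (2 were higher at an unadjusted limma p under 0.05), and Cxcr4 fell (-0.19 ± 0.056, limma adjusted p = 0.0431). In CBP-KO relative to p300-KO, the light zone median was -0.39 and the dark zone median 0.19, against -0.0033 over all genes. There 1 light zone gene fell by limma (Il4i1), 0 by edgeR and 3 by DESeq2, and 6 were lower at an unadjusted limma p under 0.05. Of the dark zone genes, Cxcr4 (0.28 ± 0.062, limma adjusted p = 0.0138) and Polh (0.35 ± 0.071, 0.0088) rose. In that comparison 4.63% of all genes were lower and 4.79% higher by limma. How far the mix of zones takes part in the class II values was not tested.

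The genes most like the members were sought by their correlation over the 11 libraries with the mean standardized profile of H2-Aa, H2-Ab1, H2-Eb1 and Cd74, as a description in which the group difference is included. H2-DMa was closest (r = 0.985), followed by Sipa1 (0.981), Selplg (0.972), Commd4 (0.970), Akna (0.969), H2-DMb2 (0.968), Zfp94 (0.967) and Strada (0.965). Only H2-DMa and H2-DMb2 among them lie on chromosome 17. Sipa1, a regulator of Rap signalling, averaged 40014 ± 2366 in CBP-KO, 45289.9 ± 729 in p300-KO and 47567 ± 1591 in WT (SD, n = 3, 3 and 5). Ciita had r = 0.943 and rank 34 among 16515 genes, H2-Oa r = 0.949 and rank 25, and H2-Eb2 r = 0.771 and rank 588. Within groups, deviations from the profile kept r = 0.966 for H2-DMa, 0.959 for Sipa1 and 0.842 for Ciita, against 0.587 for H2-Eb2.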

How the data were processed

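RNA was profiled in 11 libraries of sorted germinal center B cells. Per the labels' protocols, total RNA was isolated with the NucleoSpin RNA XS kit, and libraries were made with the TruSeq RNA v2 kit (no strand information). The submitters' processing notes name CASAVA 1.8, HISAT2, featureCounts, DESeq2 and mm10, with no settings. The deposited signal values are read counts per gene, scaled by the authors with a size factor for each library. All values were whole multiples of 1 step per library (tolerance 1e-06 reads), so whole reads were recovered for 100% of values, and DESeq2 size factors computed from those reads matched the deposited ones.

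Genes with a mean of at least 10 (16515 of 48593) were tested with limma 3.58.1 (variance trend) on log2(value + 1), with 3 group means in 1 fit of all 11 libraries and no covariate, two-sided. Benjamini-Hochberg adjustment ran over all genes tested (threshold 0.05). Differences on this scale understate changes of low genes. Ratios and covariation used exact permutation tests in Python 3.11.15 with scipy 1.17.1. Gene positions and transcript lengths come from GENCODE M21 (GRCm38), promoters from RefSeq (GRCm38.p6). edgeR 4.0.16 and DESeq2 1.42.0 were run on the recovered reads, and edgeR's quasi-likelihood test called 1323, 1961 and 1525 genes in CBP-KO against WT, p300-KO against WT and CBP-KO against p300-KO, where limma called 1380, 1970 and 1556. Other alternatives were pseudocounts of 0.5 and 8, no filter or a mean of at least 50, TMM and quantile scaling, fits of 2 groups alone, each library left out, both WT_46 and p300-KO_18 left out, and sex as a covariate (the last 2 chosen after seeing the data). The limma fits were tested on simulated data with 200 changed genes. In CBP-KO against WT, p300-KO against WT and CBP-KO against p300-KO, they recovered 44.8%, 52.2% and 38.8% of 1.5-fold changes. Of the calls, 5.63%, 7.84% and 3.79% were false.

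Named genes were the members, the targeted genes, up to 6 genes per list with the smallest p in CBP-KO against WT with Ciita, Rfx5, H2-Ea-ps, H2-DMa, H2-DMb1, Cd83 and Cxcr4, and the 8 closest in profile (predicted genes and receptor segments left out). The members and the gene lists were chosen with earlier results of these data known. Of 5 plasma cell markers, 1 fell in CBP-KO against WT (4.88% of all genes fell) and 3 rose in p300-KO against WT (5.84% rose). Intervals cover the spread between libraries. The neighbour list had 19 symbols, of which 18 were found.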

Additional observations from a re-analysis of the deposited data

Results flagged for a closer look

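In 1 of 10 groups of ratios or members checked for a library far from its group, the ratio of H2-Aa to H2-Ab1 in WT, WT_46 stood apart. Its ratio was 0.996 and the other 4 WT libraries had 1.04 to 1.06, so the gap was 0.768 of the whole range, past Dixon's critical value of 0.71 for 5 samples. Chance passes that value in about 1 of 20 groups.

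The effect of CBP-KO differed from that of p300-KO for 4 members by limma, with log2 differences of -0.57 (H2-Aa), -0.52 (H2-Ab1), -0.57 (H2-Eb1) and -0.45 (Cd74). For each of them, all 3 CBP-KO libraries lay below all 3 p300-KO libraries.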

How the results depend on the processing

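No paired analysis was possible because the knockout and WT groups share no replicate numbers. For H2-Aa, H2-Ab1, H2-Eb1 and Cd74, all 22 alternatives kept the direction and the call in CBP-KO against WT and in CBP-KO against p300-KO. With 1 library left out at a time, CBP-KO against WT ranged from -0.79 to -0.59 for H2-Aa, -0.65 to -0.51 for H2-Ab1, -0.69 to -0.54 for H2-Eb1, -0.72 to -0.46 for H2-Eb2 and -0.58 to -0.42 for Cd74, and CBP-KO against p300-KO from -0.66 to -0.45, -0.58 to -0.44, -0.63 to -0.47, -0.34 to -0.052 and -0.52 to -0.36 for the same genes. In p300-KO against WT, the ranges were -0.19 to -0.11 for H2-Aa, -0.10 to -0.052 for H2-Ab1, -0.096 to -0.033 for H2-Eb1, -0.52 to -0.28 for H2-Eb2 and -0.084 to -0.031 for Cd74. Quantile normalization gave H2-Ab1 0.011 and H2-Eb1 0.019 there, and H2-Eb2 passed with DESeq2 (-0.37) and with 2 groups in the fit (-0.38). The cause was not tested. Genes called in CBP-KO against p300-KO numbered 2338 with DESeq2 and 913 with sex as a covariate, where 1 library fewer was fitted. With 1 library left out, 642 to 1541 genes were called in CBP-KO against WT, 1169 to 2027 in p300-KO against WT and 745 to 1954 in CBP-KO against p300-KO. Fallen pathway genes numbered 4 to 7 in CBP-KO against WT and 3 to 8 in CBP-KO against p300-KO (8 with DESeq2). Fallen markers in CBP-KO against WT, p300-KO against WT and CBP-KO against p300-KO numbered 1 to 5, 0 to 1 and 0 to 4 for macrophages and 1 to 2, 1 to 2 and 0 to 1 for dendritic cells, and plasma cell markers 1 to 2 in CBP-KO against WT. In the same 3 comparisons, DESeq2 gave 9, 1 and 5 for macrophages and 3, 1 and 1 for dendritic cells. Log2 ratios with 1 library left out spanned 0 in CBP-KO against p300-KO for H2-Aa to H2-Ab1 (-0.081 to 0.0017) and H2-Eb1 to H2-Aa (-0.048 to 0.023), and in CBP-KO against WT for H2-Eb2 to H2-Eb1 (-0.026 to 0.14). Without the 2 libraries farthest from the median, r was 0.38 for H2-Aa with H2-Eb2, 0.72 for H2-Aa with Cd74, 0.29 for H2-Ab1 with Cd74, 0.19 for H2-Eb1 with Cd74 and -0.31 for H2-Eb2 with Cd74. Without WT_46 and p300-KO_18, r for H2-Aa with H2-Eb2 was 0.75 and no longer passed, the log2 ratio of H2-Eb1 to H2-Aa was 0.021 in CBP-KO against p300-KO, and the fallen pathway genes numbered 6, 0 and 5 in the 3 comparisons.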
